A study of Populus davidiana with 6 samples.

Results

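The loci described here are those of the aspen leaf whose RNA was clearly lower after whole plants had been air-dried. A locus was taken when it spanned at least 300 bases, had a mean of at least 2 FPKM in control leaves, and had a lowest control value at least 2 times its highest air-dried value. FPKM is the number of fragments scaled by transcript length and by the size of the library, and values of all transcripts of a locus were summed. Of 40537 loci, 217 met these conditions, which is 1.1% of the 19815 loci with that span and control level (called expressed loci below). For 39 of the 217 the last condition was met as 0 against 0, because they were listed at 0 in at least 1 control sample and in all 3 air-dried samples. The other 178 had every control value above 0 and are called the lowered loci below. They were chosen by the difference between control and air-dried leaves, so their lower level is the rule and not a result, and no test of it is given. The groups do not overlap in any of them, by construction.

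The samples were leaves of Populus davidiana cultivar Palgong1, classed by the labels as drought sensitive. Plants at the seedling stage, about 6 weeks old, had been raised from internodes in sterile culture on sugar-containing medium with the auxin naphthalene acetic acid, in long days. The air-dried group (3 samples) came from plants taken out of the medium, rinsed with sterile water and kept in open air for about 10 min; the control group (3 samples) came from plants described only as controls, so rinsing and handling cannot be told apart from drying. All 6 samples share the cultivar, and the labels do not say whether each came from its own plant, so their spread may be technical.

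When a leaf loses water its cells lose turgor, abscisic acid accumulates and the stomata close. The level of a messenger RNA is the balance of its synthesis and its decay, so a message becomes scarcer only as fast as existing copies are removed. A level measured at a single time cannot separate less synthesis from faster decay. In whole leaves, fewer cells of a type and less of an RNA per cell cannot be told apart either. The files carry a gene name for 0 of 112919 transcripts, so no function is given for any locus, the leaf label was not checked against marker genes, and loci are described by position. Positions are as deposited, on a genome build that the sources used here do not name.

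Depth per sample is unknown, since only FPKM values were used. Between 21755 and 22461 loci reached 1 FPKM in a sample. Control replicate 1 differed most from the rest: across the 19815 expressed loci, its Pearson correlations with the other samples in log2(FPKM + 1) were 0.839 to 0.867, against 0.917 to 0.979 among the other 5. These are correlations across loci, which are not independent replicates.

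The lowered loci were 0.898% of the expressed loci. The mirrored condition, a lowest air-dried value at least 2 times the highest control value, was met by 163 expressed loci, or 0.823%. It kept the minimum mean of 2 FPKM in control leaves, so loci below that level before drying could not meet it. The 2 shares therefore do not give the balance of falls and rises. Mean control level in the lowered loci had a median of 12.6 FPKM (quartiles 4.16 and 43.7), close to the median of 14.2 FPKM over all expressed loci (quartiles 6.61 and 32.1). Their mean air-dried level had a median of 2.32 FPKM (quartiles 0.828 and 8.17), against 14.5 FPKM over all expressed loci. Ordered by level among the expressed loci, the lowered loci had a median position of 10778 from the top in control leaves and 18850 in air-dried leaves. Of the 178 lowered loci, 16 were among the 1000 most abundant of the 19815 expressed loci in control leaves and 4 in air-dried leaves.

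**Figure D1:**
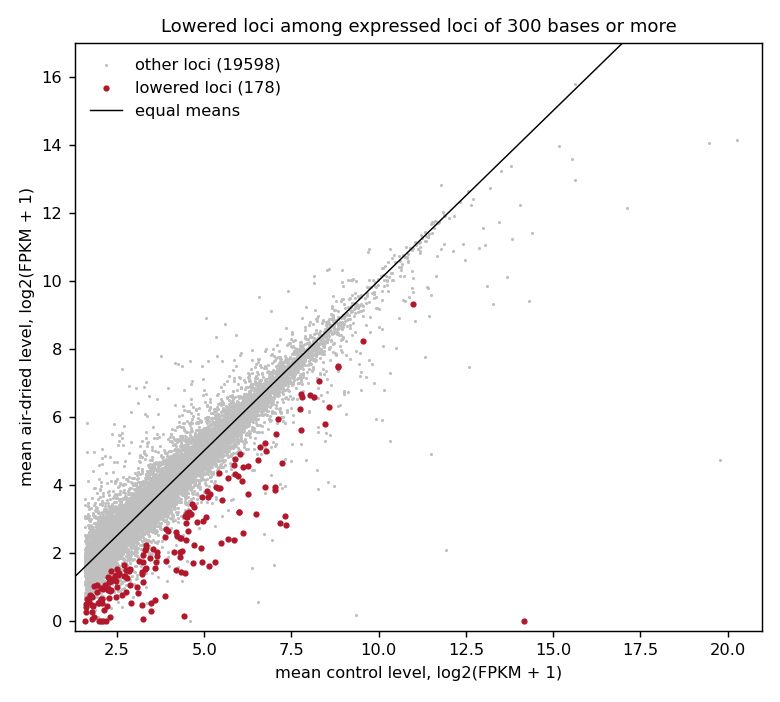
Mean level in air-dried leaves (vertical axis) against mean level in control leaves (horizontal axis), both as log2(FPKM + 1), for the other expressed loci (grey) and the 178 lowered loci (red), with a line of equal means. The lowered loci run along the lower edge of the cloud, where some grey loci with overlapping or less separated values also lie, and the lone red point at the far right is the locus on scaffold_287, listed at 0 in air-dried leaves.

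The size of the difference varied widely. The ratio of mean control to mean air-dried FPKM had a median of 4.16 over the 172 lowered loci with an air-dried mean above 0 (quartiles 3.02 and 7.08), against a median of 1.01 over expressed loci. It was at least 3 in 131 loci, at least 5 in 66, at least 10 in 30 and at least 20 in 13. Here and below, medians of this ratio leave out the 6 lowered loci with an air-dried mean of 0, the scaffold_287 locus among them. Loci of different abundance had similar ratios up to 100 FPKM: the median was 4.23 in the 81 loci with a control mean under 10 FPKM and 4.21 in the 72 loci from 10 to under 100 FPKM. In the 25 loci at 100 FPKM or more it was 3.1. These 25 were 1.63% of all expressed loci of that abundance, and the 2 lower classes were 1.08% and 0.668%. The median ratio corresponds to 2.06 halvings, or 1 halving per 4.86 min if the change ran evenly over the 10 min of drying. The time from lifting the plants to stopping the RNA is not given, so this is arithmetic on the labelled exposure and not a measured rate.

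**Figure D2:**
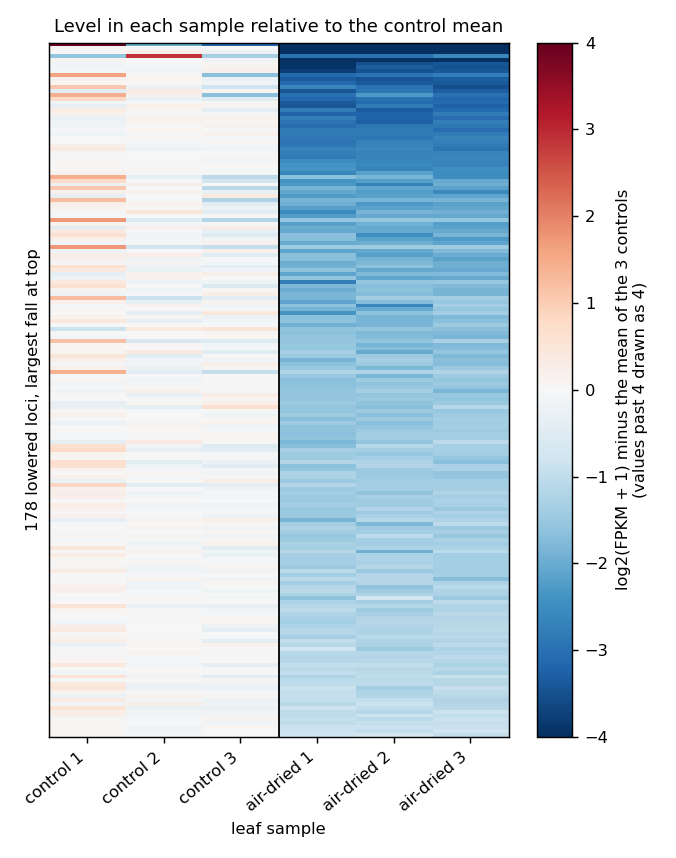
Level of each of the 178 lowered loci (rows, largest ratio of group means, each plus 1 FPKM, at the top) in each of the 6 samples (columns), as log2(FPKM + 1) minus the mean of the 3 controls; colours stop at 4. All 3 air-dried columns are blue in every row, while the control columns are near white in most rows and, in a subset, red in control replicate 1 and blue in control replicate 3.

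The 12 loci described first had the largest ratios of group means after 1 FPKM was added to each mean, a rank that 1 high control can carry. Ranked by the difference of mean log2(FPKM + 1), 3 of them would give way to loci on chromosome 9 (10680678 to 10681001, -3.21; 7134992 to 7138967, -3.19) and chromosome 19 (8818203 to 8820089, -3.16). POPTR_0002s01870.r1 (chromosome 2, 997286 to 1003043, minus strand, 5 transcripts) stood at 170.2, 157 and 162 FPKM in the controls and at 6.92, 5.70 and 5.64 FPKM in the air-dried samples. Each control value was thus over 20 times each air-dried value, and the ratio of means was 26.8. POPTR_0010s09950.r1 (chromosome 10, 10551687 to 10554183, plus strand, 3 transcripts) stood at 138, 169.9 and 119.9 FPKM in the controls and at 7.80, 6.11 and 4.88 FPKM after drying. Similar values were found on chromosome 11 (17448875 to 17451590, plus strand, 1 transcript), with 171, 161 and 144 FPKM against 8.52, 6.14 and 7.75 FPKM. These 3 loci had positions 929, 1072 and 954 among the expressed loci in control leaves and 15373, 15224 and 14270 in air-dried leaves. With their ratios of 26.8, 22.8 and 21.2, an even change over 10 min would be 1 halving per 2.11, 2.22 and 2.27 min.

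Moderately expressed loci followed. On the plus strand of chromosome 4 (3185169 to 3186755), the controls were at 35.2, 39.5 and 40.7 FPKM and the air-dried samples at 1.59, 2.46 and 2.79 FPKM, a ratio of 16.9. On the plus strand of chromosome 9 (4695401 to 4698442), they were at 32.5, 31.2 and 39.7 FPKM and at 1.59, 2.19 and 2.35 FPKM, also a ratio of 16.9. The groups lay far apart in both loci. Relative to their level, the air-dried values varied more than the controls in both. The highest over the lowest value was 1.75 against 1.16 on chromosome 4 and 1.48 against 1.27 on chromosome 9. In FPKM the controls varied more, with SDs of 2.90 against 0.620 on chromosome 4 and 4.55 against 0.399 on chromosome 9. Loci on chromosome 14 (7378129 to 7380101, minus strand) and chromosome 10 (15086593 to 15088287, plus strand) had control means of 88.8 ± 13.9 and 50.1 ± 3.23 FPKM and air-dried means of 7.70 ± 0.547 and 4.29 ± 0.564 FPKM (± SD, n = 3 each). A locus of 99241 bases on the plus strand of chromosome 16 (2687355 to 2786595) joins annotated transcripts from its opposite ends. Its level, 63.4, 66.5 and 75.2 FPKM in controls and 3.57, 6.01 and 5.202 FPKM after drying, came almost wholly from 2 transcripts at one end (2785332 to 2786595), which held 25.01% and 74.5% of the control level. The annotated transcript at the opposite end (2687355 to 2689039) was at or under 0.353 FPKM in every sample.

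The remaining 4 of the 12 had control values far apart. The locus on scaffold_287 (7470 to 19154, minus strand) was listed at 54334, 404 and 176 FPKM in control replicates 1, 2 and 3 and at 0 in all air-dried samples. On chromosome 6, a wholly new locus (25771451 to 25771979, 529 bases) was at 1.65, 57.7 and 2.17 FPKM in the controls, and its 56.3 FPKM transcript was listed at 0 in the other 5 samples. A locus on chromosome 9 (6222774 to 6237365) was at 119.8, 39.9 and 11.6 FPKM and one on chromosome 6 (23669738 to 23672575) at 54.4, 21.1 and 14.05 FPKM. In these 4 loci the highest control was over 2 times the next, so their ratios of means are not given.

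**Figure D3:**
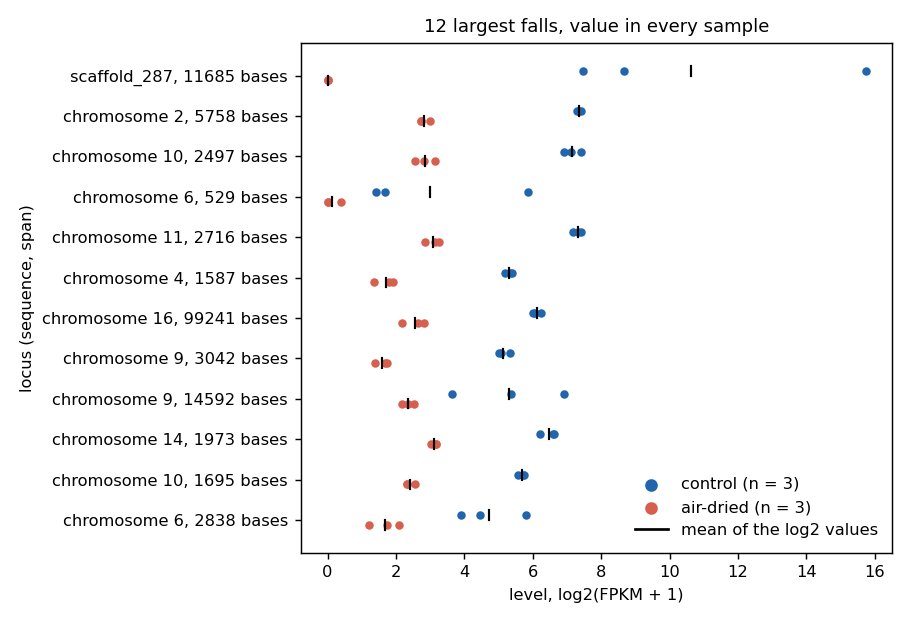
Level in every sample, as log2(FPKM + 1), for the 12 lowered loci with the largest ratios of group means, each plus 1 FPKM (rows, named by sequence and span); blue points are the 3 controls, red points the 3 air-dried samples and black bars the means of the log2 values. In 8 rows the controls lie close together, and in the other 4 (scaffold_287, both on chromosome 6, and the 14592-base locus on chromosome 9) the controls are spread.

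Of the 7 most abundant lowered loci after that on scaffold_287, 5 had ratios of 2.39 to 3.18, under the median of the set, and 2 had ratios of 4.92 and 6.48. The highest lies on the minus strand of chromosome 5 (5540200 to 5543793) and stood at 2064, 2024 and 1965 FPKM in controls and at 689, 614 and 599.7 FPKM in air-dried leaves, a ratio of 3.18. Another on chromosome 5 (7804781 to 7807538, minus strand) was at 740.1, 769 and 724 FPKM against 296, 302 and 295 FPKM, a ratio of 2.5. After drying these 2 loci still held positions 179 and 392 among the expressed loci, from 85 and 186. Loci on chromosome 10 (8434810 to 8437781, minus strand) and chromosome 3 (12057217 to 12062486, plus strand) had nearly equal levels, 452 ± 17.9 and 452 ± 34.3 FPKM in controls and 175 ± 4.69 and 177 ± 7.99 FPKM after drying (n = 3 per group). A further one on chromosome 5 (24972249 to 24978701, minus strand) went from 315 ± 6.82 to 132 ± 2.52 FPKM. These 5 loci also had the 5 highest air-dried levels in the set. The ratio of 4.92 belongs to a chromosome 13 locus (10469858 to 10513159) with less even replicates, described with its overlapping neighbour below. The ratio of 6.48 was found on the minus strand of chromosome 14 (12927717 to 12930120), with 335, 357 and 365 FPKM in controls and 49.7, 56.1 and 57.3 FPKM after drying. All 5 of its transcripts are annotated, and 1 of them held 88.7% of the control level.

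At the opposite end, 51 lowered loci had a mean under 1 FPKM after drying, and 44 were under 1 FPKM in each air-dried sample. Exact zeros can be failed estimates. In 15 loci at least 1 air-dried sample, and in 6 all 3, were listed at 0. Among loci under 1 FPKM after drying, 7 had every control value at 5 FPKM or more, the scaffold_287 locus included. One on chromosome 15 (1413253 to 1415044) was at 9.08, 10.0 and 11.1 FPKM in controls and 0.331, 0.490 and 0.508 FPKM after drying. One on chromosome 19 (8818203 to 8820089) was at 10.6, 15.6 and 14.6 FPKM against 0.349, 1.07 and 0.524 FPKM. Others lay on chromosome 2 (8961165 to 8962377), at 8.83, 12.1 and 12.2 FPKM against 0.805, 0.294 and 0.427 FPKM, and on chromosome 1 (32341669 to 32343335), at 10.7, 6.97 and 7.03 FPKM against 0.416, 0.525 and 0.202 FPKM. A chromosome 9 locus (1175860 to 1179777) was at 13.8, 6.22 and 5.28 FPKM against 0, 0.0968 and 0 FPKM. Its ratio of means, 262, was the highest in the set that could be computed. That ratio rests on an air-dried mean of 0.0323 FPKM and on controls spread by 2.62 times. The choice of these was made with their values known.

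Summed levels are carried by a few abundant loci. Without the scaffold_287 locus, the other 177 summed to 10801, 10442 and 10084 FPKM in the controls and to 3038, 2980 and 2986 FPKM in the air-dried samples. The chromosome 5 locus at 5540200 to 5543793 made up the largest share of each sum. Per locus, the highest over the lowest air-dried value had a median of 1.29, leaving out the 15 loci with an air-dried value of 0. It was also 1.29 for the controls, against 1.18 in air-dried leaves over expressed loci, again without zeros. Lowered loci had lower air-dried levels than expressed loci in general, and the spread was not compared at equal level.

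Control values were spread in a part of the set. The highest control was over 2 times the lowest in 30 of the 178 loci (16.9%), against 12.7% of expressed loci. Control replicate 1 was the highest in 26 of these 30 (86.7%), against 55.6% of the 2513 expressed loci with such a spread. Control replicate 3 was the lowest in 21 of the 30, against 1131 of the 2513. In the 163 loci of the mirrored condition, 32 had such a spread, and there control replicate 1 was the lowest in 28, against 923 of the 2513. Most of the 30 loci were weakly expressed, although the scaffold_287 locus and 4 others had control means above the set's median of 12.6 FPKM. Medians over the 30 were 7.48, 3.22 and 2.38 FPKM in control replicates 1, 2 and 3 and 0.427, 0.589 and 0.45 FPKM in the air-dried samples. Of the 15 loci with a 0 among the air-dried samples, 12 were among them. The other 148 had medians of 17.6, 17.8 and 18.0 FPKM in the controls and 3.28, 3.54 and 3.51 FPKM after drying, and a median ratio of 3.70. Of the 30, 21 still met the conditions without control replicate 1, where only the minimum control level could fail. The part of control replicate 1 in the differences of these loci was not tested.

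**Figure D4:**
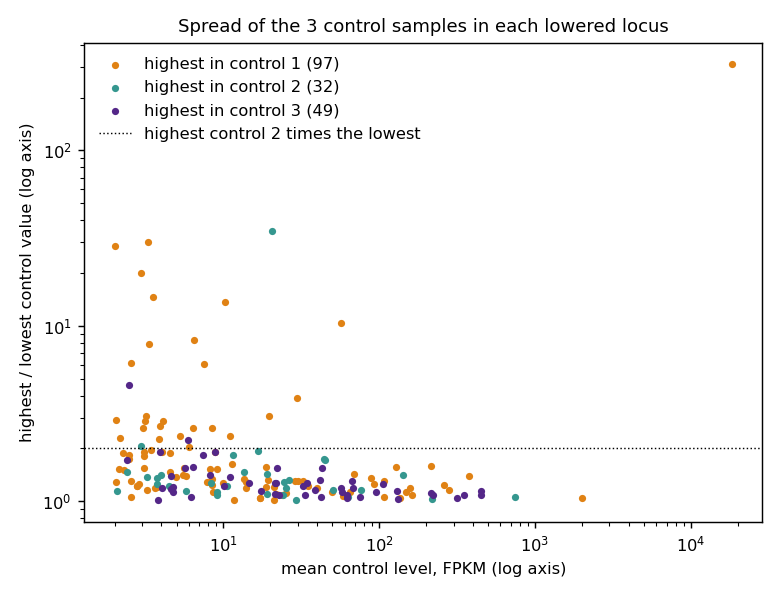
Highest over lowest of the 3 control values (vertical log axis) against mean control level in FPKM (horizontal log axis) for the 178 lowered loci, coloured by the control sample with the highest value; the dotted line marks a highest value 2 times the lowest. Points above the line are mostly loci of low level that were highest in control replicate 1.

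The 39 loci that met the conditions as 0 against 0 had control values that did not hold across replicates. In 24 of them only 1 control sample was above 0 and in 15 2 were. The highest value was in control replicate 1 for 15, in control replicate 2 for 19 and in control replicate 3 for 5. In 9 loci a control sample exceeded 10000 FPKM, up to 3040000 FPKM in control replicate 1. Of the 39 loci, 36 had a single transcript. By limma on log2(FPKM + 1), at an adjusted p under 0.05, 0 of the 39 were called lower, against 597 of all 22835 tested loci. Without control replicate 1, 3 of the 27 still tested were called, against 581 of 22664 loci. Without control replicate 2, 2 of the 22 still tested were called, against 229 of 22721 loci. The 39 were chosen from the same contrast, so nothing is read from these counts.

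Lowered loci were more compact and had simpler models than expressed loci in general, which the rule did not ask for. Their median span was 2288 bases (quartiles 1217 and 3972), against 3727 over expressed loci (quartiles 2249 and 5804). A single transcript was listed for 80 of them (44.9%), against 21.6% of expressed loci. Loci with only annotated models made up 75 of the 178 (42.1%), against 20.3%. Loci with an annotated identifier and added transcripts made up 87 (48.9%), against 67.0%. Merged loci numbered 10, and 6 were wholly new. The mirrored loci shared this make-up, with a median span of 1691 bases and 58.9% with a single transcript, so it is not particular to lowered loci. Loci with a single transcript and those with several had similar ratios (medians 4.26 and 3.94) but different control levels (medians 8.64 and 20.8 FPKM). Annotated single-transcript loci under 1000 bases accounted for 27 lowered loci (15.2%, against 4.74% of expressed loci), and 7 lowered loci spanned 15000 bases or more (3.93%, against 4.48%). No set test was made.

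Transcripts of a lowered locus are parts of a sum chosen for being lower, and those counted here were kept by their control level, so their direction and ratios are largely fixed by the choice. The 98 such loci held 202 transcripts with a control mean of at least 1 FPKM, in 97 of the loci. The mean was lower after drying in 198 of the 202. Of the 97 known transcripts all 97 were lower, and 63 were separated by at least 2 times on their own; of the 105 new transcripts all but 4 were lower, and 32 were separated. The median ratios were 4.65 for known and 4.37 for new transcripts. In 62 loci with at least 2 such transcripts, all transcripts were separated in 12, some in 30 and none in 20, so in these last 20 only the sum met the condition. The transcript with the highest mean was the same in both groups in 80 of the 96 loci with an air-dried mean above 0. How the level was divided among transcripts differed between replicates, as 15 known and 35 new transcripts of the 202 were at or under 0.01 FPKM in at least 1 control sample.

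**Figure D5:**
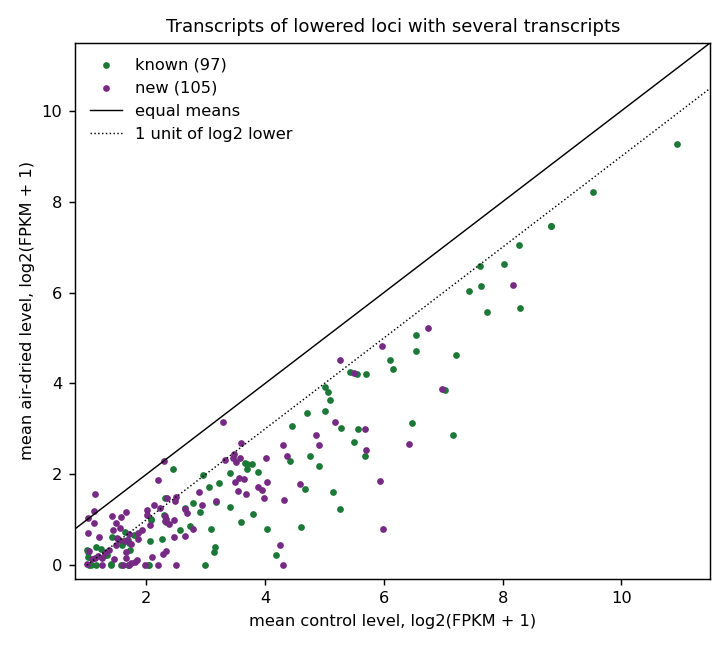
Mean level in air-dried leaves against mean level in control leaves, both as log2(FPKM + 1), for 97 known (green) and 105 new (purple) transcripts with a control mean of at least 1 FPKM in lowered loci of several transcripts; the solid line marks equal means and the dotted line 1 unit of log2 lower. All but 4 transcripts lie below the solid line, and the 4 exceptions are new transcripts.

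POPTR_0002s01870.r1 is an example of a stable sum over an unstable division. One new transcript (997286 to 1002925) was at 97.2, 88.7 and 1.54 FPKM in control replicates 1, 2 and 3, while another over the same interval was at 0.000047, 0.0000103 and 54.1 FPKM. Another was at 58.7, 53.9 and 68.6 FPKM and the annotated transcript (997286 to 1000254) was at 23.5 FPKM in control replicate 3 and near 0 in the other controls. The sums nevertheless lay within 157 to 170.2 FPKM. After drying no transcript of this locus was above 3.21 FPKM. Known transcripts held under 10% of the control level in 23 lowered loci (12.9%, against 20.3% of expressed loci) and over 90% in 106.

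In a chromosome 8 locus (13301126 to 13307405, plus strand) the 8 transcripts did not all differ alike between groups. Its annotated transcript (13301322 to 13305371) was at 21.3, 8.58 and 16.1 FPKM in controls and 0.796, 0.176 and 1.27 FPKM after drying. A new transcript that begins and ends further downstream (13302254 to 13307405) was at 8.27, 11.9 and 6.05 FPKM in controls and 10.97, 7.41 and 5.35 FPKM after drying. Another new transcript with the same end but an earlier start (13301261 to 13307405) was at 3.05, 9.92 and 14.1 FPKM in controls. After drying it was at 0.463, 5.16 and 6.28 FPKM. The groups overlap in both new transcripts and not in the annotated one. The division among transcripts differed between controls here too. A further new transcript (13301263 to 13305371) was at 11.6 FPKM in control replicate 1 and near 0 in the other controls. This locus was named as part of an adjacent pair, and its transcripts were compared after their values were seen.

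Lowered loci were found across the genome. They lay on all 19 chromosomes (175 loci) and on 3 other sequences, from 0.38% of expressed loci on chromosome 19 to 1.49% on chromosome 9, where 14 were found. On the plus and minus strands there were 87 and 89, and 2 had no strand. The median distance to the nearest lowered locus was about 0.6 megabases, and 36 lowered loci lay within 100000 bases of another. These distances were not compared with those of other loci. The expressed loci on either side of them, 338 in all and not lowered themselves, had a median log2 difference (air-dried minus control) of -0.068 (quartiles -0.26 and 0.12), against quartiles of -0.18 and 0.19 over all expressed loci that were not lowered. A difference of -1 or below was found in 9 of these 338 neighbours (2.66%) and in 1.61% of expressed loci that were not lowered, and the difference in shares was not tested.

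Lowered loci were next to each other among expressed loci in 6 pairs, with 12 loci (6.74%); of the mirrored loci 8 formed such pairs (4.91%). In 3 of the 6 pairs the spans overlap on opposite strands. The libraries are named as TruSeq RNA and were taken to carry no strand information, so reads within the overlap may not be told apart. On chromosome 13 a plus-strand locus (10469858 to 10513159) was at 422, 409 and 301 FPKM in controls and 90.2, 78.2 and 61.8 FPKM after drying. The minus-strand locus over nearly the same interval (10471259 to 10514111) was at 34.9, 29.2 and 26.7 FPKM against 8.61, 5.995 and 5.42 FPKM. In both, new transcripts that span the whole interval held over 90% of the control level. On chromosome 16, loci on the minus strand (4427236 to 4428351) and the plus strand (4428224 to 4434901) overlap only at their ends and went from 107 ± 14.3 to 30.8 ± 2.10 FPKM and from 132 ± 1.80 to 44.0 ± 1.36 FPKM (n = 3 per group). The pair on chromosome 8 is the locus described above and a new minus-strand transcript inside it (13302176 to 13307405), which was at 2.95, 2.02 and 1.96 FPKM against 0.596, 0.797 and 0.643 FPKM.

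The other 3 pairs do not overlap. On chromosome 9, plus-strand loci 6203 bases apart (10672995 to 10674474 and 10680678 to 10681001) were at 9.06, 7.30 and 7.05 FPKM against 2.16, 2.48 and 2.42 FPKM, and at 31.2, 54.4 and 46.5 FPKM against 3.08, 4.87 and 3.51 FPKM. The second, of 324 bases, had a ratio of 11.53. On chromosome 18, loci 10471 bases apart on opposite strands (1329511 to 1329957 and 1340429 to 1343636) went from 3.82 ± 0.0237 to 1.18 ± 0.541 FPKM and from 76.1 ± 5.70 to 22.5 ± 3.17 FPKM (n = 3 per group). On chromosome 14, loci 21198 bases apart (8442558 to 8444412, wholly new, and 8465611 to 8469327) went from 13.9 ± 1.198 to 5.42 ± 0.837 FPKM and from 22.8 ± 0.988 to 8.12 ± 0.897 FPKM. Over the whole set, 25 of the 178 lowered loci overlapped another locus at 1 FPKM or more, against 2283 of the 19815 expressed loci, and for 14 (7.87%, against 4.81%) a more abundant locus lay on the opposite strand.

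Values near the limit show where the set ends. The last loci inside had a lowest control value 2.00, 2.01 and 2.02 times the highest air-dried value. The first of these, on chromosome 1 (16968451 to 16969338), was at 37.5, 31.3 and 28.8 FPKM in controls and 14.4, 11.48 and 13.2 FPKM after drying. The first loci outside had 1.99, 1.99 and 1.98 times. One of them, on chromosome 9 (10741053 to 10744102), was at 2.58, 3.90 and 3.14 FPKM against 0.982, 1.3 and 1.13 FPKM, and lies near the chromosome 9 pair described above.

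For scale, limma was run on log2(FPKM + 1) over all 22835 loci averaging 1 FPKM or more. At a Benjamini-Hochberg adjusted p under 0.05 it called 597 (2.61%) lower and 951 higher in air-dried leaves. Every lowered locus passed the filter of 1 FPKM because its control mean alone ensures it. Of the 178, 154 were among the lower calls and 24 were not. Without air-dried replicate 3, 100 were called, and over all 22822 loci then tested 157 were called lower. In the main fit, 21 of the 24 had controls spread by over 2 times, and the 24 had a median control mean of 3.39 FPKM. All lowered loci were chosen from the same contrast, so nothing is read from these counts. Over the same 22835 loci, 13.3% had every control value above every air-dried value.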

How the data were processed

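Poly(A) RNA from leaves (3 control and 3 air-dried samples, grouped by their titles) was made into libraries with the TruSeq RNA kit and read as 100 bp pairs, per the labels' protocols. Each deposited table gives FPKM by transcript, as its header states, for 1 transcript set shared by all 6 samples. FastQC, TopHat and Cufflinks are named in the submitters' processing notes. Their versions, settings and genome build are not stated in what was used here. Depth is unknown, so no count test was run.

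Here FPKM was summed by locus and span taken from the first to the last base. Members and lists were chosen with earlier results of these data known. Setting apart the loci at 0 against 0, the classes of control spread and the comparison of transcripts were chosen after these values were seen. Loci were named by fixed ranks: the 12 largest ratios of group means (each plus 1 FPKM), 8 highest control and 5 highest air-dried means, 3 on either side of the limit, and all adjacent pairs. These ranks were taken without the loci at 0 against 0. Other loci were chosen after their values were seen. Planned lists by product name and marker genes could not be applied without gene names. The fit was limma 3.58 in R 4.3 on log2(FPKM + 1), with a variance trend, over loci averaging 1 FPKM or more, and was tested on simulated data. Summaries used Python 3.11 and pandas 2.3.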

Additional observations from a re-analysis of the deposited data

How the results depend on the processing

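The set held 178 loci. It held 359 with a limit of 1.5 times and 71 with 3 times, by construction, and 2 when samples were scaled to equal sums over loci of 300 bases or more, since that sum was 24097657 FPKM in control replicate 1 and 942883 to 1258024 FPKM in the other samples. Leaving out 1 sample in turn gave 205 to 266 loci, since fewer samples can only make the separation easier to meet. Under the other 9 alternatives, 3 of them added after the data were seen, the number lay between 125 and 217. The median ratio of 4.16 was 3.94 to 4.22 with 1 sample left out, 4.20 with size factors, 4.52 with known transcripts only and 3.70 without loci of spread controls. The limma calls among the lowered loci, 154, were 100 to 150 with 1 sample left out (100 without air-dried replicate 3). Leaving out a control left 169 to 175 of the lowered loci tested. Over all loci the lower calls fell too, from 597 to between 146 and 581, and to 157 without air-dried replicate 3. Among the lowered loci they were 101 of 106 tested with a minimum mean of 5 FPKM, against 553 of 17202 over all loci. With known transcripts only, an alternative added after the data were seen, they were 98 of 147 tested, against 287 of 17191. With the replicate number as a block they were 80, against 114 of 22835 over all loci, with fewer residual degrees of freedom. Same-numbered samples correlated at 0.0253, -0.0646 and 0.0499 in their deviations from the group means, so the numbers were not taken to pair samples. The log2 differences of the 33 named lowered loci kept their sign in all 357 values under the alternatives. The rule fixes that sign with 1 sample left out, another pseudocount or the replicate block, so nothing is read from it. The differences moved by more than the spread between replicates in 34 values, 27 of these with another pseudocount and 7 with known transcripts only. Adjacent loci numbered 12, and 8 when all loci counted as neighbours. Depth is unknown, so counting error at low levels is not given.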
